A study of Mus musculus with 10 samples.

Results

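CC chemokines are small secreted proteins, named for a pair of adjacent cysteines, that draw leukocytes toward the cells that release them. They act through Ccr receptors, which are G protein-coupled receptors on leukocytes, while the atypical receptors Ackr1 to Ackr4 and Ccrl2 bind chemokines or related ligands without driving classical G protein signaling. In tumors the family is best known for bringing in monocytes, through Ccl2 and Ccr2, and T and NK cells, through ligands such as Ccl5.

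The family was taken from the gene table by symbol, as Ccl ligands, Ccr receptors, Ackr1 to Ackr4 and Ccrl2. This gave 37 genes of the 35958 features in the table, namely 24 ligands, 8 signaling receptors and 5 atypical receptors. The samples were 10 tumors of WEHI-164, an established line of mouse fibrosarcoma, implanted subcutaneously in wild-type female BALB/c mice, and the labels give no age. Each piece was cut out at surgery and stored in RNAlater before any treatment, so both groups were untreated at collection. A hydrogel loaded with poly(I:C), a synthetic double-stranded RNA, was then applied to the tumor left behind. The 5 responders (tumors 5, 9, 10, 11 and 12) later regressed completely and the 5 non-responders (tumors 1, 2, 3, 6 and 7) grew without delay, so the question was whether the family already differed between them before poly(I:C). Each group is a model of 1 transplanted line in 1 inbred strain, and each piece is a part of its tumor. Total estimated counts ran from 16002949 in responder 9 to 31160790 in responder 11, with group medians of 25627675 in responders and 22757833 in non-responders. The fibrosarcoma label was matched by abundant mesenchymal transcripts, with Vim, an intermediate filament gene, at a mean of 4760 CPM (counts scaled to the size of each library after TMM normalization), whereas the eosinophil granule genes Epx and Prg2 had at most 1 and 7 counts in any tumor.

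In the tumors that later responded, 23 of the 28 family genes with enough counts to test had a fitted log2 fold change above 0 and 5 had one below 0, but 0 of them differed at an adjusted p under 0.05 (edgeR quasi-likelihood test, Benjamini-Hochberg adjustment over all 15767 features tested), as was the case for 0.0% of all features. DESeq2 and limma-voom also gave 0 members. Ccl5, which attracts T and NK cells, had the largest fitted fold over non-responders, at 2.22 times. The eotaxin Ccl24 followed at 1.72 times and Ccl8, a relative of Ccl2, at 1.64 times. Ccr2, the receptor that monocytes use to reach Ccl2, stood at 0.85 times the non-responder level. A gene was tested where its CPM was above 0.366 in 3 or more tumors. That filter kept 17 of 24 ligands, 6 of 8 signaling receptors and 5 of 5 atypical receptors. At an unadjusted p under 0.05 there were 4 genes, Ccl2, Ccl24, Ccl5 and Ccrl2, each higher in responders, against 7.71% of all features in either direction and 3.86% with higher values in responders. Without non-responder 1 the count was 12 of 27, against 9.48% of all features in the same fit, and without responder 5 it was 7 of 27, against 13.3%. The log2 fold change was above 0 for 48.6% of all features and below 0 for 51.4%. The median log2 fold change was 0.34 over the 28 genes and -0.0036 over all features. For none of the 28 genes were the 5 responders all above or all below the 5 non-responders, an arrangement found for 0.336% and 0.59% of all features. In bulk tumor pieces, fewer cells of a type and less RNA per cell cannot be told apart, and this holds for each value below.

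**Figure D1:**
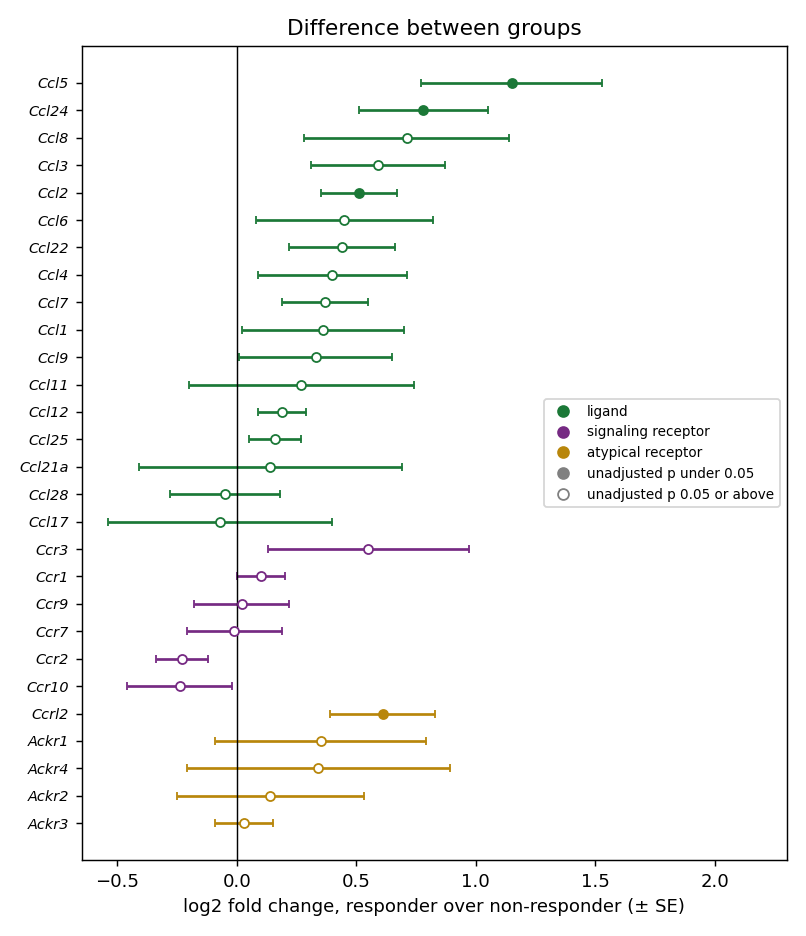
Log2 fold change of responders over non-responders (horizontal axis) for the 28 genes past the filter, colored by role. Bars are ± SE derived from the F statistic of the edgeR test, and filled points have an unadjusted p under 0.05. Of the 17 ligands 15 lie right of 0, while the 6 signaling receptors lie on both sides, from Ccr10 at -0.24 to Ccr3 at 0.55.

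Levels between genes were compared per length, as counts per kilobase of the longest annotated transcript with the genes of known length scaled to the same total in each tumor. On this scale Ccl8 was the most abundant member at 1200 ± 604 (SD, n = 10), followed by Ccl2 at 536 ± 131 and Ccl7 at 386 ± 88.6. Ccl6 followed at 271 ± 114, Ccl12 at 153 ± 20.8, Ccl5 at 105 ± 65.7, Ccl9 at 70.8 ± 25.4 and Ccr1 at 55.5 ± 6.15. The ± SD ranges of each pair of neighbors in this order overlapped. The order depended on the length taken: with the median length of a gene's transcripts Ccl8 stood at 504, Ccl2 at 259, Ccl6 at 212 and Ccl7 at 162, so that Ccl6 passed Ccl7. Ccr2 was the next receptor, at 41.6 ± 7.01, but with the median length it lay above Ccr1, at 30.7 against 23.4. Of the summed level of all ligands, Ccl8 made up 40.8%, Ccl2 20.2%, Ccl7 14.4%, Ccl6 9.54% and Ccl12 6.0%, so these 5 ligands held most of the ligand transcript. Ccl5 made up 4.11% ± 1.11 for responders and 3.03% ± 0.498 for non-responders (SD, n = 5 each).

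**Figure D2:**
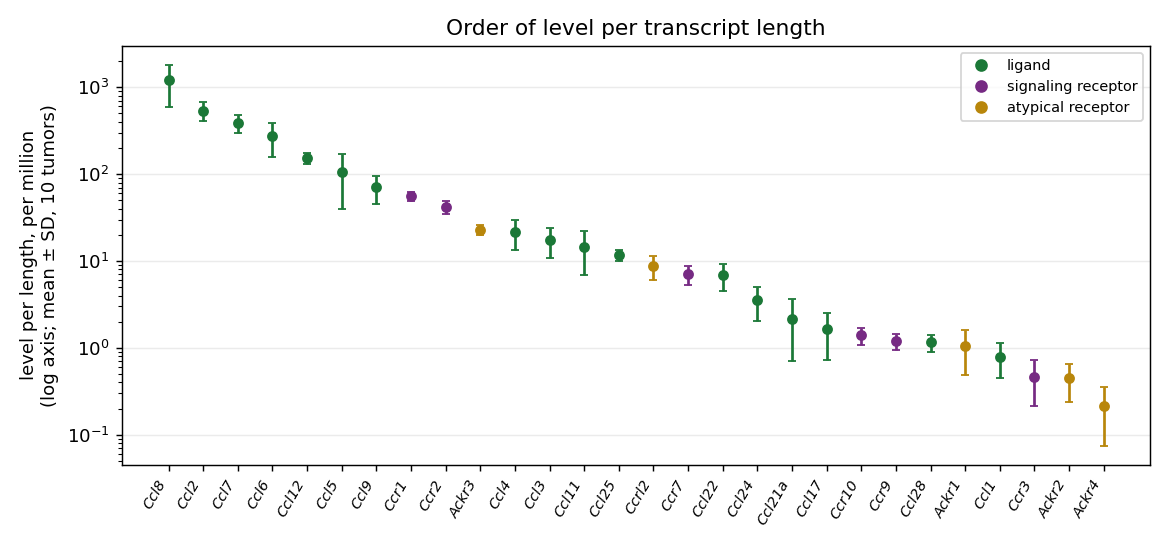
Level per kilobase of transcript, scaled to the same total in each tumor (vertical log axis), for the 28 genes past the filter, with points for the mean and bars for ± SD over 10 tumors, colored by role. The order runs from Ccl8 at 1200 to Ackr4 at 0.214, and the highest signaling receptor, Ccr1, comes after 7 ligands; with the median transcript length Ccr2 is the higher of the pair.

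The monocyte attractants Ccl2, Ccl7 and Ccl12, read by Ccr2, were grouped with their relative Ccl8, whose receptor use differs between mouse and human and is not settled here. Summed over these genes, the level came to 696 ± 177 CPM for responders and 478 ± 142 CPM for non-responders (SD, n = 5 each), and the mean of each of the 4 genes was the higher one in responders, with a median log2 fold change of 0.44. Ccl2 (chr11:82035571-82037453, plus strand, GRCm38) is the classical monocyte attractant. It measured 188, 301, 244, 283 and 257 CPM in responders 5, 9, 10, 11 and 12 and 239, 169, 186, 159 and 143 CPM in non-responders 1, 2, 3, 6 and 7. Of the responders 4 lay above every non-responder and responder 5 lay among them, while non-responder 1 lay among the responders. The log2 fold change of 0.51 (SE 0.16) had the smallest unadjusted p of the family and an edgeR adjusted p of 0.624. An exact two-sided permutation test of the mean log2(CPM + 1), which cannot go below 0.00794 with groups of this size, gave p = 0.0159. Exact permutation p-values of single genes, here and below, are not adjusted for the number of genes. A predicted gene, Gm17268, overlaps Ccl2 on the opposite strand, but Ccl2 shares no 31-base stretch with another annotated gene. Its estimated counts were whole in each tumor.

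Ccl7 (chr11:82045712-82047525, plus strand), which shares Ccr2 with Ccl2, measured 83.3, 145, 131, 150 and 133 CPM in responders 5, 9, 10, 11 and 12 and 135, 87.6, 84.7, 98.2 and 91.1 CPM in non-responders 1, 2, 3, 6 and 7. Responder 5 was the lowest of all 10 tumors and stood far from the other responders, and non-responder 1 was among the responders. The log2 fold change was 0.37 (SE 0.18, edgeR adjusted p = 0.651; exact permutation p = 0.151). Ccl8 (chr11:82115185-82116799, plus strand), the most abundant of them, measured 122, 253, 382, 427 and 219 CPM in the responders in the same order and 319, 87.8, 124, 168 and 158 CPM in the non-responders. It varied 4.87-fold between the lowest and the highest tumor, and the groups overlapped through responder 5 and non-responder 1. Its log2 fold change was 0.71 (SE 0.43, edgeR adjusted p = 0.718; exact permutation p = 0.143). Ccl12 (chr11:82101845-82103400, plus strand), a mouse ligand of Ccr2, was the steadiest of the 4 at 30.3, 35.6, 31.8, 29.7 and 34.1 CPM in responders and 31.3, 22.6, 25.4, 34.8 and 27.9 CPM in non-responders. Its responders were all above 3 of the non-responders, and the log2 fold change was 0.19 (SE 0.10, edgeR adjusted p = 0.682; exact permutation p = 0.151). These genes sit within a short stretch of chromosome 11 together with Ccl11.

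**Figure D3:**
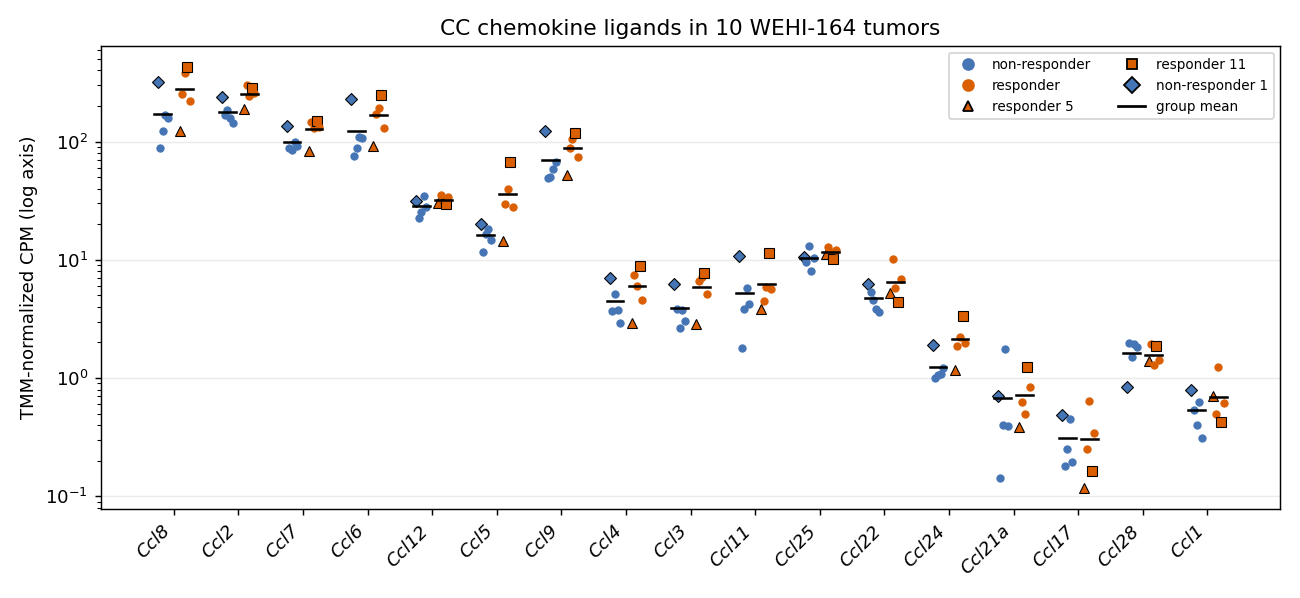
CPM after TMM normalization (vertical log axis) of the 17 ligands past the filter in each of the 10 tumors, with a short line for each group mean. Responder 5 (triangle) is the lowest responder and non-responder 1 (diamond) the highest non-responder for many ligands, among them Ccl2, Ccl7, Ccl8 and Ccl5.

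The other inflammatory ligands, Ccl3, Ccl4, Ccl5, Ccl6 and Ccl9, which recruit T cells, NK cells and monocytes, also each had a higher mean in responders, with a median log2 fold change of 0.45. Ccl5 (RANTES, chr11:83525778-83530518, minus strand) is released by activated T and NK cells as well as by infected or stimulated cells of other types. It measured 14.3, 29.5, 39.9, 67.8 and 27.7 CPM in responders 5, 9, 10, 11 and 12 and 20.2, 11.7, 16.4, 18.3 and 14.8 CPM in non-responders 1, 2, 3, 6 and 7. All responders but responder 5 lay above every non-responder, and responder 11 stood highest. The mean was 35.8 ± 20.05 CPM (SD, n = 5) against 16.3 ± 3.28 CPM (SD, n = 5), a log2 fold change of 1.15 (SE 0.38, edgeR adjusted p = 0.624; exact permutation p = 0.0397). Without responder 11 the log2 fold change was 0.77, and without responder 5 it was 1.36.

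NK cells, a main source of Ccl5, were read from markers in the same tumors. Of the 7 NK markers past the filter, 7 had a higher mean in responders and 5 (Ncr1, Klrb1c, Eomes, Gzma and Prf1) had an unadjusted p under 0.05, against 3.86% of all features, but 0 an adjusted p under 0.05 (edgeR), and the median log2 fold change was 0.89. Their summed level was 27.3, 109, 124, 204 and 117 CPM in responders 5, 9, 10, 11 and 12 and 66.6, 24.4, 34.7, 64.3 and 27.8 CPM in non-responders 1, 2, 3, 6 and 7, with Gzma the most abundant and Klra8 at 0. Most of the sum was Gzma, at means of 56.1 (responders) and 16.1 CPM (non-responders), and Prf1, at 41.8 and 16.8 CPM. Both are granule genes that cytotoxic T cells also express, so the sum is not specific to NK cells. Ncr1 was lower, at 5.39 and 2.95 CPM. Among responders it ran from 1.75 CPM in responder 5 to 8.2 CPM in responder 11. Responder 5 was thus low and responder 11 high on the sum and on Ncr1, as on Ccl5. The 11 T cell markers, led by Lck, summed to 54.7 ± 18.0 CPM (responders) against 40.1 ± 11.98 CPM (non-responders; SD, n = 5 each), and each had a higher mean in responders. The part of these cells in the level of Ccl5 was not tested.

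Ccl3 (MIP-1α, chr11:83647844-83649355, minus strand), made by macrophages and activated lymphocytes, measured 2.87, 6.57, 7.15, 7.81 and 5.14 CPM in responders 5, 9, 10, 11 and 12 and 6.25, 3.82, 2.67, 3.79 and 3.05 CPM in non-responders 1, 2, 3, 6 and 7. Responder 5 fell inside the non-responder range and non-responder 1 inside the responder range. This gave a log2 fold change of 0.59 (SE 0.28, edgeR adjusted p = 0.644; exact permutation p = 0.135). Its neighbor Ccl4 (MIP-1β) had a log2 fold change of 0.40 (edgeR adjusted p = 0.765; exact permutation p = 0.302), which was 0.20 without responder 11 and 0.62 without non-responder 1. Ccl6 and Ccl9, mouse ligands of Ccr1 made by myeloid cells, were far more abundant per length. Ccl6 (chr11:83587882-83593087, minus strand) measured 91.4, 172, 193, 246 and 129 CPM in responders in the same order and 229, 75.5, 88.0, 109 and 108 CPM in non-responders. Ccl9 (chr11:83572919-83578636, minus strand) measured 52.1, 88.1, 105, 119 and 73.4 CPM in responders and 123, 48.9, 49.97, 58.9 and 66.8 CPM in non-responders. In both genes the groups overlapped widely, since non-responder 1 reached the level of the highest responders and responder 5 that of the lower non-responders. Their log2 fold changes of 0.45 and 0.33 had edgeR adjusted p-values of 0.788 and 0.818. Without non-responder 1 these log2 fold changes were 0.81 and 0.64, and without responder 11 they were 0.27 and 0.19. E230016K23Rik lies opposite Ccl6. Of the 31-base stretches of Ccl6, 1.02% occur in another annotated gene, and its estimated counts were whole numbers (within 0.01) in each tumor.

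Many of these ligands come from macrophages and monocytes. The 10 macrophage markers summed to 1660 ± 209 CPM (responders) against 1490 ± 194 CPM (non-responders; SD, n = 5 each), with C1qa the most abundant, and 8 had a higher mean in responders with 0 at an unadjusted p under 0.05. The sum was lowest among responders in responder 5, at 1410 CPM, and highest in responder 11, at 1960 CPM, and among non-responders it was highest in non-responder 1, at 1810 CPM. The 8 monocyte markers summed to 700 ± 34.2 and 698 ± 31.7 CPM (SD, n = 5 each), mostly Vcan at 388 ± 51.3 and 416 ± 38.5 CPM. Of the 7 past the filter, 6 had a higher mean in responders, with a median log2 fold change of 0.40, and Ly6c2, the surface marker of inflammatory monocytes, measured 25.2 ± 2.5 CPM in responders against 18.1 ± 4.08 CPM in non-responders (SD, n = 5 each; log2 fold change 0.48, edgeR unadjusted p = 0.00445, adjusted p = 0.624), the 1 marker of the 7 with an unadjusted p under 0.05, against 3.86% of all features. The part of myeloid cell content in the levels of the ligands was not tested.

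Among the eotaxins, the ligands of the eosinophil receptor Ccr3, Ccl24 (chr5:135569937-135573049, minus strand) measured 1.17, 1.88, 2.22, 3.38 and 1.99 CPM in responders 5, 9, 10, 11 and 12 and 1.89, 1.0, 1.06, 1.08 and 1.21 CPM in non-responders 1, 2, 3, 6 and 7. Responders 10, 11 and 12 exceeded all non-responders, and non-responder 1 stood apart from the rest of its group. The log2 fold change was 0.78 (SE 0.27, edgeR adjusted p = 0.624; exact permutation p = 0.0397), on 21 to 104 counts per tumor. Ccl11 had a log2 fold change of 0.27 (SE 0.47), with its 2 highest values in responder 11, at 11.5 CPM, and non-responder 1, at 10.8 CPM. Its sign turned without responder 11, to -0.08. Ccl26 had 0 counts in every tumor, which allows up to 3 counts in a library. Eosinophil markers were close to 0 in both groups, at a summed 1.75 ± 0.434 and 1.44 ± 0.369 CPM (SD, n = 5 each).

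Ccl22 and Ccl17 are read by Ccr4, a receptor of regulatory and Th2 T cells, and come mainly from dendritic cells and macrophages. Ccl22 (chr8:94745590-94751699, plus strand) measured 5.28, 10.1, 5.72, 4.36 and 6.9 CPM in responders and 6.21, 5.32, 4.58, 3.84 and 3.64 CPM in non-responders in the tumor order above, and its groups overlapped, with responder 9 highest and responder 11 among the non-responders. This gave a log2 fold change of 0.44 (SE 0.22, edgeR adjusted p = 0.651; exact permutation p = 0.127), and 0.24 without responder 9. Ccl17 (chr8:94810453-94812036, plus strand) was scarce, with 3 to 13 counts per tumor. It measured 0.117, 0.25, 0.641, 0.163 and 0.345 CPM in responders and 0.484, 0.179, 0.252, 0.451 and 0.196 CPM in non-responders, so that both the lowest and the highest tumor were responders (log2 fold change -0.07, SE 0.47, edgeR adjusted p = 0.983; exact permutation p = 0.889). Its sign turned without responder 5, to 0.15, and without responder 11, to 0.12. Ccr4 itself was not past the filter, with 0, 8, 7, 15 and 9 counts in responders 5, 9, 10, 11 and 12 and 7, 6, 6, 7 and 5 counts in non-responders 1, 2, 3, 6 and 7. Responder 5 was the only tumor with none, and no tumor was above 0.5 CPM. The 5 regulatory T cell markers summed to 34.9 ± 7.82 CPM (responders) against 24.6 ± 4.17 CPM (non-responders; SD, n = 5 each). The most abundant was Il2ra, at 15.7 ± 5.38 against 8.88 ± 2.51 CPM (log2 fold change 0.82, edgeR adjusted p = 0.624). Foxp3 differed less, at 4.15 ± 0.917 against 3.38 ± 0.505 CPM (log2 fold change 0.28, edgeR adjusted p = 0.7).

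The ligands of lymphoid organs and barriers were at low levels. Ccl25, a thymic and intestinal ligand of Ccr9, was the highest per length of them, at 11.6 ± 0.999 CPM (responders) against 10.3 ± 1.78 CPM (non-responders; SD, n = 5 each; log2 fold change 0.16, edgeR adjusted p = 0.732; exact permutation p = 0.198), and Elavl1 overlaps it on the opposite strand. Ccl28, an epithelial ligand of Ccr10 (chr13:119623819-119654359, plus strand), measured 1.4, 1.94, 1.28, 1.85 and 1.42 CPM in responders and 0.836, 1.97, 1.51, 1.94 and 1.84 CPM in non-responders. The responder range lay inside the non-responder range, with non-responder 1 the lowest tumor, and its log2 fold change was -0.05 (SE 0.23, edgeR adjusted p = 0.977; exact permutation p = 0.96). The sign of Ccl28 turned without any 1 of 4 tumors. Ccl21a, which guides cells into lymph nodes through Ccr7, had 4 to 39 counts, and 80.6% of its 31-base stretches also occur in another annotated gene, so its value is uncertain, and its sign (log2 fold change 0.14) turned without any 1 of 3 tumors. The genes not past the filter were Ccl19 with at most 8 counts, Ccl20 with 1, Ccl27a with 3, Ccr6 with 10, Ccr4, and Ccl21b, Ccl21d, Ccl26 and Ccl27b with 0 in every tumor. Ccl1, a product of activated T cells and mast cells, was past it with 8 to 25 counts and had a log2 fold change of 0.36 (SE 0.34), but of 0.07 without responder 10.

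The signaling receptors, which report on the cells that can follow these ligands, did not share a direction. Of 6 past the filter, 3 had a log2 fold change above 0 and 3 below 0, with a median log2 fold change of 0.01 and 0 at an unadjusted p under 0.05 (edgeR). Ccr2 (chr9:124101950-124113557, plus strand) measured 85.0, 83, 72.2, 76.9 and 85.3 CPM in responders 5, 9, 10, 11 and 12 and 77.7, 75.9, 99.6, 117 and 104 CPM in non-responders 1, 2, 3, 6 and 7. Non-responders 3, 6 and 7 lay above every responder, and non-responders 1 and 2 lay within the responder range. The mean was 80.5 ± 5.72 CPM (SD, n = 5) against 94.8 ± 17.6 CPM (SD, n = 5), a log2 fold change of -0.23 (SE 0.11, edgeR adjusted p = 0.646; exact permutation p = 0.143), which was -0.14 without non-responder 6. Ccr2 thus had a lower mean in responders than in non-responders while its ligands Ccl2, Ccl7 and Ccl12 had higher means, and neither side passed the adjusted threshold. The estimated counts of Ccr2 were not whole numbers (within 0.01) in any of the 10 tumors, and 3.48% of its 31-base stretches occur in other genes. Ccl2, Ccl7 and Ccl8 share no such stretch and had whole counts in each tumor. The split of reads thus adds an uncertainty to Ccr2 that was not measured. The same holds for other members, among them Ccl9 (3.98% shared, not whole in 9 tumors) and Ackr4 (8.14%, 8 tumors).

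**Figure D4:**
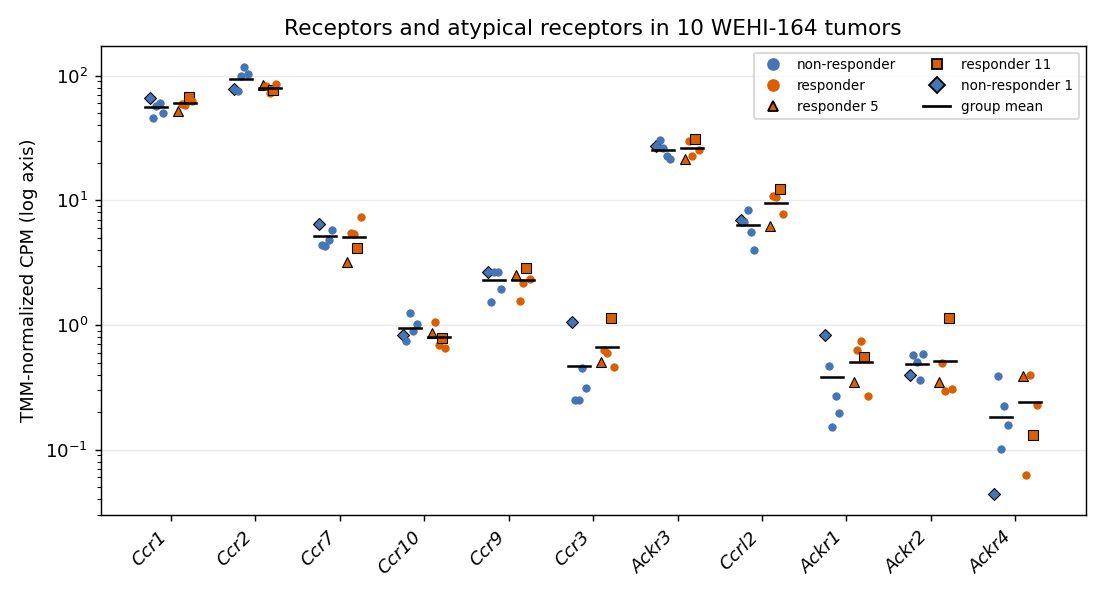
CPM after TMM normalization (vertical log axis) of the 6 signaling receptors and 5 atypical receptors past the filter in each of the 10 tumors, with a short line for each group mean. Non-responders reach 117 CPM for Ccr2, above the responder maximum of 85.3, while for Ccrl2 the responder mean is the higher one.

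Ccr1 (chr9:123962124-123968692, minus strand), the receptor of Ccl3, Ccl6 and Ccl9 on myeloid cells, varied little. It measured 51.7, 59.9, 58.4, 67.6 and 62.2 CPM in responders and 66.0, 46.1, 57.3, 60.3 and 50.2 CPM in non-responders, with overlapping ranges. Its log2 fold change was 0.10 (SE 0.10, edgeR adjusted p = 0.813; exact permutation p = 0.365). Ccr7 (chr11:99144196-99155077, minus strand), which takes dendritic cells and naive T cells to lymph nodes, measured 3.19, 5.5, 5.38, 4.13 and 7.36 CPM in responders and 6.43, 4.4, 4.28, 4.78 and 5.79 CPM in non-responders. Responders held both its lowest and its highest value, and the log2 fold change was -0.01 (SE 0.20, edgeR adjusted p = 0.995; exact permutation p = 0.897), with a sign that turned without any 1 of 4 tumors. Ccr10 (chr11:101172997-101175443, minus strand), a skin-homing receptor of lymphocytes, had 14 to 26 counts per tumor. It measured 0.855, 1.06, 0.691, 0.781 and 0.652 CPM in responders and 0.836, 0.75, 1.26, 0.903 and 1.02 CPM in non-responders. Non-responder 3 was highest and responders 10 and 12 lowest, with a log2 fold change of -0.24 (SE 0.22, edgeR adjusted p = 0.807; exact permutation p = 0.222). Cntnap1 overlaps Ccr10 on the opposite strand.

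Ccr3 and Ccr9 were also scarce. Ccr3 had 5 to 35 counts per tumor and was over the minimum in 5 responders and 2 non-responders, with responder 11 standing apart at 1.14 CPM and non-responder 1 next at 1.06 CPM (log2 fold change 0.55, SE 0.42, edgeR adjusted p = 0.763; exact permutation p = 0.278). Its log2 fold change was 0.23 without responder 11 and 1.09 without non-responder 1. Ccr9 had a log2 fold change of 0.02 (SE 0.20) with means of 2.29 CPM (responders) and 2.3 CPM (non-responders), and its sign turned without any 1 of 4 tumors. Of its sequence, 21.7% of the 31-base stretches occur in other genes.

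All 5 atypical receptors had a higher mean in responders, with a median log2 fold change of 0.34, but for Ackr2 and Ackr3 the sign turned when single tumors were left out, and for Ackr2 also with limma-voom (-0.04). Ccrl2 (chr9:111054486-111057519, minus strand), which presents the attractant chemerin on endothelium and myeloid cells, measured 6.22, 10.8, 10.7, 12.4 and 7.79 CPM in responders and 6.95, 6.65, 8.35, 5.6 and 3.99 CPM in non-responders. Responders 9, 10 and 11 lay above every non-responder, and the other two lay among them. This gave a log2 fold change of 0.61 (SE 0.22, edgeR adjusted p = 0.624; exact permutation p = 0.0556). Ackr3, a scavenger of Cxcl12 and the most abundant of them per length, measured 26.2 ± 4.15 and 25.5 ± 3.6 CPM (SD, n = 5 each). The others were near the detection limit. Ackr1, the Duffy receptor of venules, had 3 to 19 counts, and 23.0% of its 31-base stretches occur in its overlapping neighbor Cadm3. Ackr2, which degrades inflammatory CC chemokines, had 6 to 35 counts and Ackr4, which degrades Ccl19, Ccl21 and Ccl25, had 1 to 11. Markers of endothelium, where Ackr1 is normally found, summed to 154 ± 8.66 CPM (responders) against 167 ± 14.1 CPM (non-responders; SD, n = 5 each). Of these 6 markers 5 had a lower mean in responders, and Cdh5 and Kdr had an unadjusted p under 0.05, against 3.84% of all features, with an adjusted p of 0.624 each (edgeR).

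The same tumors marked the ends of the range for many members. Responder 5 was the lowest responder for 16 of the 28 genes and the highest for 0, whereas over all features it was lowest for 24.2% and highest for 24.6%. Responder 11 was the highest responder for 16 genes, against 23.7% of all features. Among non-responders, tumor 1 was the highest for 18 genes, against 20.2% of all features, and tumor 2 the lowest for 14, against 19.2%. The summed level of all ligands was 611, 1070, 1170, 1370 and 913 CPM in responders 5, 9, 10, 11 and 12 and 1140, 531, 607, 677 and 638 CPM in non-responders 1, 2, 3, 6 and 7. Apart from responder 5 and non-responder 1, the responders lay at 913 CPM or more and the non-responders at 677 CPM or less. These 2 tumors were set aside after seeing the values, because they overlap the other group, so the gap is no test of a difference.

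Whether a ligand and its receptor varied together across tumors was examined for 11 pairs, of which 6 had both genes past the filter. Correlations used log2(CPM + 1) over the 10 tumors, with permutation tests of 100000 resamples and Benjamini-Hochberg adjustment over the 6 pairs. Ccl11 and Ccr3, the eotaxin and its eosinophil receptor, had r = 0.888 (permutation p = 0.00082, adjusted p = 0.00492) and rho = 0.77 (permutation p = 0.0126, adjusted p = 0.0758). With deviations from the group means r was 0.889 (permutation p = 0.00077), and without responder 11 and non-responder 2, the tumors farthest from the median of Ccl11, it was 0.835 (permutation p = 0.0195). The values of both genes in responder 11 and non-responder 1 lay far above the other 8 tumors, and without both of these, a choice made after seeing the values, r was 0.637 (permutation p = 0.0713, adjusted p = 0.395). Without responder 11 alone it was 0.832 (permutation test, adjusted p = 0.0553). The relation therefore rested on few tumors, and Ccr3 had 5 to 35 counts in each.

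The other 5 pairs did not pass the adjusted threshold. Ccl2 and Ccr2 were inversely related in these tumors, with r = -0.644 (permutation p = 0.0483, adjusted p = 0.0967), rho = -0.503 (permutation p = 0.144, adjusted p = 0.289) and r = -0.464 within groups (permutation p = 0.176). Without responder 9 and non-responder 7, r was -0.613 (permutation p = 0.105). Ccl7 and Ccr2 had r = -0.512 and rho = -0.321 (permutation p = 0.134 and 0.368, adjusted p = 0.201 and 0.536). Ccl3 and Ccr1, a ligand and receptor of myeloid cells, had r = 0.675 and rho = 0.612 (permutation p = 0.036 and 0.0677, adjusted p = 0.0967 and 0.203), with r = 0.621 without responders 10 and 11 (permutation p = 0.102) and r = 0.631 within groups (permutation p = 0.0499). For Ccl21a with Ccr7 and Ccl25 with Ccr9, r was 0.152 and -0.158 and rho 0.273 and -0.0545 (permutation p from 0.447 to 0.893, adjusted p from 0.536 to 0.893). Without responder 11 and non-responder 6, Ccl21a and Ccr7 had r = 0.706 (permutation p = 0.0495) and rho = 0.762 (permutation p = 0.0368), and without non-responders 3 and 6, Ccl25 and Ccr9 had r = -0.146 (permutation p = 0.719). Without responder 5 and non-responder 3, Ccl7 and Ccr2 had r = -0.52 (permutation p = 0.184). NK, T cell and macrophage markers were high or low in several of the same tumors, as given above, and their part in these relations was not tested.

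**Figure D5:**
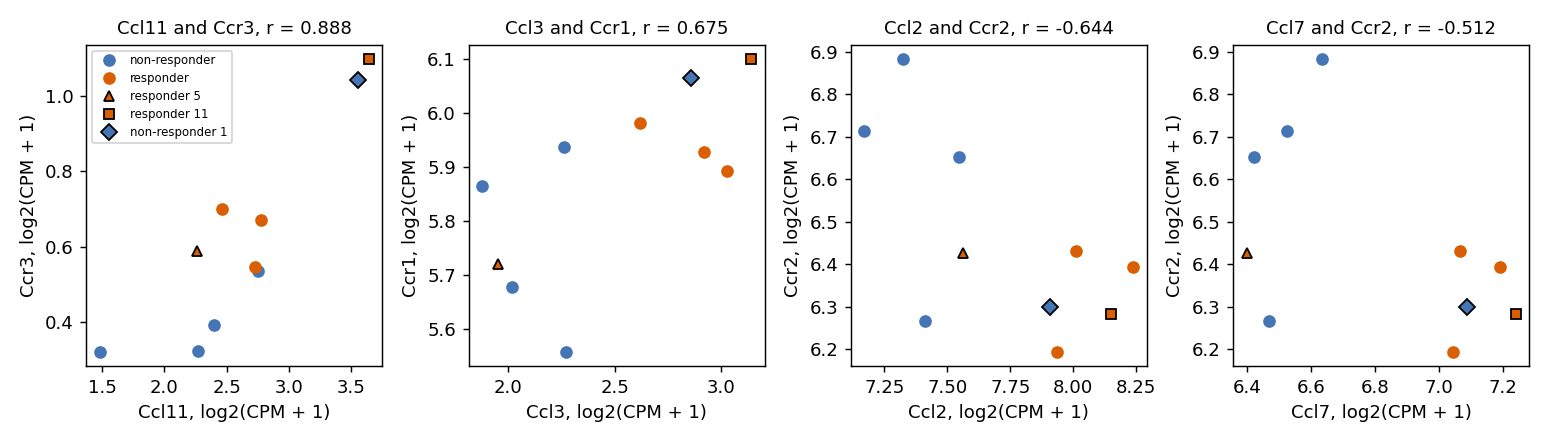
Receptor level against ligand level, both as log2(CPM + 1), in 10 tumors for 4 pairs, with 1 point per tumor and r over all tumors above each panel. The Ccl11 and Ccr3 panel (r = 0.888) is stretched by responder 11 and non-responder 1, Ccr1 leans upward with Ccl3 (r = 0.675, adjusted p = 0.0967), and Ccr2 runs against Ccl2 (r = -0.644, adjusted p = 0.0967) and Ccl7 (r = -0.512, adjusted p = 0.201).

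Downstream of the receptors, 39 genes of chemokine receptor signaling, covering G protein subunits, kinases, arrestins, Rac activators and integrins, were past the filter. Of these 22 had a log2 fold change above 0 and 17 below 0, with a median log2 fold change of 0.01 against -0.0036 over all features. An unadjusted p under 0.05 was reached by 1 in each direction, against 3.86% (higher) and 3.84% (lower) of all features, and an adjusted p under 0.05 by 0 (edgeR). Itgal, the alpha chain of the leukocyte integrin LFA-1, measured 48.0 ± 6.97 CPM (responders) against 37.3 ± 7.43 CPM (non-responders; SD, n = 5 each; log2 fold change 0.37, edgeR unadjusted p = 0.0297). Rgs2, which shortens G protein signaling, measured 8.38 ± 0.734 and 10.9 ± 2.41 CPM (SD, n = 5 each; log2 fold change -0.38, edgeR unadjusted p = 0.0134).

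Promoter sequence was read from the RefSeq windows of GRCm38.p6, each 300 bases long across a gene's start, for the 28 members with an entry, in 37 windows. Ccl11, Ccl2, Ccl24, Ccl26, Ccl4, Ccl5, Ccl7, Ccr10 and Ccr7 had no entry. The NF-kB motif GGGANNTTCC, searched on both strands, was in 2 windows, those of Ccl1 and Ccr3, and in 1.47% of 32851 windows of all genes. The interferon-stimulated response element TTTCNNTTTC was in 1 window, that of Ccl19, against 3.44% of all windows, and the GAS element TTCNNNGAA in 2, those of Ccl17 and Ccr6, against 8.3%.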

How the data were processed

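Polyadenylated RNA of 10 tumor pieces, 1 per mouse, was sequenced as paired ends. The authors estimated transcript abundance with Kallisto and summarized it to genes with tximport on mm10 (GRCm38). The deposited table holds estimated counts per gene without normalization, strand setting not given in the sources used here. Of 36009 rows, 9580 carry no symbol and hold 1.2% to 1.493% of each tumor's counts. They were kept as features, and 44 symbols on several rows were summed.

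Estimated counts were rounded, filtered (CPM above 0.366 in 3 or more tumors) and tested with edgeR 4.0.16 (robust quasi-likelihood, TMM; adjustment by Benjamini-Hochberg with 0.05 as the threshold; R 4.3.3), with a biological coefficient of variation of 10.4%. Each SE of a log2 fold change is its absolute value divided by the square root of the edgeR F statistic. The steps were tested on simulated data. Exact permutation tests enumerated 252 assignments with a pseudocount of 1, and their p-values were not adjusted. Alternatives were DESeq2 1.42.0, limma 3.58.1, other normalizations, filters and pseudocounts, and leaving out each tumor. Coordinates, lengths and shared 31-base stretches are from GENCODE on GRCm38, with the longest transcript of a gene as its length and the median length as an alternative. Python 3.11.15 was used for figures.

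The members, gene lists, pairs and tests were chosen with earlier results of these data known. Values per tumor were given for the 6 members with the smallest p in each direction (5 were lower), the 8 highest per length, Ccr2, Ccl2, Ccl7, Ccl8 and Ccl12, Ccl5, Ccl22, Ccl17 and Ccr4. Other members were given by range, by group mean or by log2 fold change alone. Genes that fit the naming pattern but are not reported here were left out of every count of members. Of the marker lists, those for dendritic cells, neutrophils, mast cells, B cells, lymphatic endothelium, keratinocytes, skeletal muscle and adipocytes are given in the closing section.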

Additional observations from a re-analysis of the deposited data

Results flagged for a closer look

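In 28 genes and 2 groups of 5 tumors, 56 groups of values were searched for a tumor whose gap to the nearest other, relative to the group's range, exceeded Dixon's critical value for 5 values on the log2(CPM + 1) scale. There were 3 such values, where chance gives 2.8. Ccl24 in non-responder 1 was at 1.53 (1.89 CPM, the other non-responders between 1.0 and 1.21). Ccl7 in responder 5 was at 6.4 (83.3 CPM, the other responders between 131 and 150). Ccr3 in responder 11 was at 1.1 (1.14 CPM, the other responders between 0.46 and 0.625).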

How the results depend on the processing

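The estimated counts limit Ackr4, Ccl17, Ackr1, Ccl1 and Ccr10, each at no more than 26 counts per tumor, and no member passed the adjusted threshold under any alternative. The lowest adjusted p of a member was 0.108, for Ccl2 without responder 5, where the alternatives for Ccl2 reached up to 0.905. Of 491 log2 fold changes under other settings 467 had the same sign, and 20 genes had no reversed one. Leaving out rows without a symbol, tried after seeing the data, also gave 23 log2 fold changes above 0. With a filter of CPM above 1 in 5 or more tumors the genes with one below 0 numbered 3. DESeq2 gave 8 members with an unadjusted p under 0.05, against 7.9% of all features, and 1 feature of all with an adjusted one. Leaving out each tumor gave 3 to 8 genes with a log2 fold change below 0 (8 without responder 11), 4 to 12 members with an unadjusted p under 0.05, against 5.0% to 13.3% of all features (12 against 9.48% without non-responder 1), and 0 to 4 features with an adjusted one (4 without responder 5); the cause was not tested.

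Leaving out each tumor turned the sign of Ackr2 (-0.45 to 0.29), Ackr3 (-0.03 to 0.10), Ccl11 (-0.08 to 0.71), Ccl17 (-0.23 to 0.15), Ccl21a (-0.17 to 0.87), Ccl28 (-0.21 to 0.04), Ccr7 (-0.19 to 0.12) and Ccr9 (-0.10 to 0.12). It moved the log2 fold change by over 1.5 times with the same sign for Ackr1 (0.17 to 0.82), Ackr4 (0.10 to 0.54), Ccl1 (0.07 to 0.54), Ccl12 (0.11 to 0.27), Ccl22 (0.24 to 0.56), Ccl25 (0.09 to 0.26), Ccl4 (0.20 to 0.62), Ccl6 (0.27 to 0.81), Ccl9 (0.19 to 0.64), Ccr1 (0.04 to 0.17), Ccr10 (-0.34 to -0.13), Ccr2 (-0.31 to -0.14) and Ccr3 (0.23 to 1.09). Ackr2 was at -0.04 with limma-voom and -0.02 with a pseudocount of 0.25, where Ccl28 was at 0.00. The correlation ran from -0.806 to -0.557 for Ccl2 with Ccr2 (adjusted p = 0.0293 without non-responder 2), from 0.584 to 0.752 for Ccl3 with Ccr1 (adjusted p = 0.0408 without non-responder 2), from 0.00724 (without responder 5) to 0.306 (without responder 11) for Ccl21a with Ccr7 and from -0.423 to 0.0867 for Ccl25 with Ccr9. For Ccl11 with Ccr3 it ran from 0.832 (without responder 11, adjusted p = 0.0553) to 0.907, and it was 0.637 without both responder 11 and non-responder 1. No paired analysis was possible because each mouse gave 1 piece and so belonged to 1 group only.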

Other observations

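Other cell types that answer to CC chemokines were read from marker lists, each as a summed level over 5 responders and 5 non-responders (SD, n = 5 each). Neutrophil markers summed to 35.4 ± 13.1 and 23.1 ± 6.72 CPM, with 6 of 6 genes past the filter higher in responders, and mast cell markers to 282 ± 63.3 and 208 ± 56.4 CPM, with 6 of 6 higher. Dendritic cell markers summed to 25.2 ± 3.42 and 22.4 ± 6.81 CPM with 6 of 8 higher. The list for migratory dendritic cells, the main carriers of Ccr7, summed to 564 ± 18.7 and 612 ± 42.5 CPM with 3 of 6 higher. Most of this sum was Fscn1 at 356 ± 30.4 and 410 ± 41.9 CPM and Tmem123 at 159 ± 11.1 and 154 ± 3.79 CPM. In the same tumors Ccr7 was at 5.11 and 5.14 CPM, and Il4i1, also on the list, at 2.21 and 2.09 CPM. The sum therefore does not measure the amount of these cells. B cell markers summed to 2.99 ± 0.336 and 2.89 ± 0.403 CPM. Lymphatic endothelium markers, from the source of Ccl21a in tissue, summed to 6.39 ± 2.1 and 10.4 ± 2.27 CPM, and Flt4, the receptor of lymphatic growth factors, had a log2 fold change of -0.60 (edgeR unadjusted p = 0.00387, adjusted p = 0.624).

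Tissue around a tumor also varied between pieces. Skeletal muscle markers summed to 103 ± 44.2 CPM for responders and 141 ± 38.7 CPM for non-responders, adipocyte markers to 3.45 ± 2.0 and 4.49 ± 2.63 CPM, and keratinocyte markers to 6.54 ± 1.31 and 5.18 ± 0.723 CPM, with Krt1 at 0. Mesenchymal markers summed to 11800 ± 450 and 12400 ± 808 CPM. None of these markers had an adjusted p under 0.05.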
